A study of Mus musculus with 50 samples.

Results

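The 9 genes Hnf4a, Foxa1, Foxa2, Foxa3, Cebpa, Cebpb, Onecut1, Onecut2 and Prox1, transcription factors that set up and maintain the hepatocyte lineage, were followed across liver tissue and liver tumours of C3H/He mice. They were chosen by gene symbol, and each matched 1 of the 45792 rows of the count table. RNA-seq libraries were available from 12 non-tumour livers on the control diet (N1 to N12), 11 non-tumour livers on the ALIOS diet (N13 to N23), 13 tumours on the ALIOS diet (T1 to T6 and T8 to T14) and 1 tumour on the control diet (T7). A further 8 tumours came from mice given the carcinogen DEN (diethylnitrosamine) on the ALIOS diet (T15, T16 and T22 to T27), and 5 from mice given DEN on the control diet (T17 to T21). ALIOS is an American lifestyle diet, rich in fat and trans-fat and given with fructose in the drinking water, and the control diet was low in trans-fat and came without sugar. All tissue had a harvest time of 48 weeks, and the study described its C3H/He mice as male, from either of 2 substrains (C3H/HeNHsd or C3H/HeNCrl). Which substrain or mouse gave each library, and the dose and timing of DEN, were not given in the sources used here, so a tumour could not be matched to the liver of its own mouse, and p-values measure the spread between libraries.

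Hepatocyte identity rests on a small set of factors that bind each other's genes and the genes of liver metabolism. HNF4A is a nuclear receptor required for most hepatocyte functions. The FOXA proteins are pioneer factors that open closed chromatin, C/EBPα drives metabolic genes and holds back division, and C/EBPβ acts in the acute phase response and in regeneration. ONECUT1 (also called HNF6) and ONECUT2 act in liver development and in hepatocytes and bile duct cells, and PROX1 is needed for hepatoblasts to move out into the growing liver. Loss of such factors is a known feature of dedifferentiated liver tumours.

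Promoter sequences are given for Hnf4a, whose levels overlapped in tumours and livers, for Foxa1 and Onecut1, which moved together among the livers, and for Foxa3 and Cebpa, which changed in tumours. Each is the stretch of 250 bases before a transcript start in RefSeq on GRCm38.p6, the C57BL/6J reference and not the C3H/He genome. Such windows were found for 8 of the 9 genes, 12 windows in all. Capitals mark matches, on either strand, to the letters of 6 motifs. The C/EBP motif was searched as TTGCNNAA and the FOXA motif as TGTTTNC. The HNF4 motif was searched as CAAAGTCCA and the ONECUT motif as ATCNAT. The TATA box was searched as TATAAA and the E-box as CACGTG. Hnf4a has a distal start and, inside the locus, the start used by adult liver, and both windows are shown.
Hnf4a, distal start, chr2:163506607-163506856, plus strand: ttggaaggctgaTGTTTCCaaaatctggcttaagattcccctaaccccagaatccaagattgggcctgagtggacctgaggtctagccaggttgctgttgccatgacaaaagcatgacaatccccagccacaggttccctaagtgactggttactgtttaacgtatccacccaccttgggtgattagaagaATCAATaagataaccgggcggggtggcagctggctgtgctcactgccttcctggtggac
Hnf4a, start inside the locus, chr2:163546905-163547154, plus strand: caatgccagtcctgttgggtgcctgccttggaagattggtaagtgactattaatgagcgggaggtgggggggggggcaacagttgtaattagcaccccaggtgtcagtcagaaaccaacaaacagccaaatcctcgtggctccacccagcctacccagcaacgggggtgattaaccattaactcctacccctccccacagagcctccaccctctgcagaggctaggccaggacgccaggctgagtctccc
Foxa1, chr12:57546112-57546361, minus strand: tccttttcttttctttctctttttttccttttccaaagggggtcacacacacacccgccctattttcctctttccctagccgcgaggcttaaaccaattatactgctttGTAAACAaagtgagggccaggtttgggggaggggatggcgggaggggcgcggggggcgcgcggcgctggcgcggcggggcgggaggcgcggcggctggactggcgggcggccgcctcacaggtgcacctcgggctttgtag
Foxa3, chr7:19023540-19023789, minus strand: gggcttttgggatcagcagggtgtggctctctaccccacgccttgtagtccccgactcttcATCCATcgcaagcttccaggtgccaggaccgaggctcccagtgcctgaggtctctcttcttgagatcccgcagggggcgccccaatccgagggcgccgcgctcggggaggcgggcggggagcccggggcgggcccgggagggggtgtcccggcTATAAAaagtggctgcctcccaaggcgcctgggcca
Cebpa, chr7:35119043-35119292, plus strand: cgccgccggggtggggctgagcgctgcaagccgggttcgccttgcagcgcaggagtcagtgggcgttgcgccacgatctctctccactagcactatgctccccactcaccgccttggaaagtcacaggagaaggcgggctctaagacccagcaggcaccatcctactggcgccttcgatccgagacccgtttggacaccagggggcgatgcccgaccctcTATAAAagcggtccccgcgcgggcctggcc
Onecut1, chr9:74861671-74861920, plus strand: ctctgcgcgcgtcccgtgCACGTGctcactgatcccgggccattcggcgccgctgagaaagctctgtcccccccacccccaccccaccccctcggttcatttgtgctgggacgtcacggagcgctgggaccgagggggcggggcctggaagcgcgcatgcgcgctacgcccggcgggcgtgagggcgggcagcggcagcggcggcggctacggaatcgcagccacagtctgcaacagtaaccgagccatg

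Gene spans are those of Gencode M21 on GRCm38 (mm10). Hnf4a (ENSMUSG00000017950.14) spans chr2:163506808-163572910 on the plus strand in 13 blocks of exon. Foxa1 spans chr12:57540628-57546916, Foxa2 chr2:148042877-148046969, Foxa3 chr7:19013284-19023538 and Prox1 chr1:190118035-190170714, all on the minus strand. On the plus strand lie Onecut1 at chr9:74861921-74891781 and the genes Cebpa at chr7:35119293-35121928 and Cebpb at chr2:167688915-167690418, each a single exon. Exon reads were counted per gene, so the values do not separate the starts of Hnf4a.

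The 6 windows differed in the letters they held. The window inside the Hnf4a locus held none of the 6 motifs. The distal Hnf4a window held the ONECUT letters from 59 to 54 bases and the FOXA letters from 238 to 232 bases before the start. In Foxa1, the capitals are the FOXA letters read on the opposite strand, from 141 to 135 bases before the start. A TATA box lay from 36 to 31 bases before the start in Foxa3 and from 30 to 25 bases before it in Cebpa, and Foxa3 also held the ONECUT letters from 189 to 184 bases before the start. Onecut1 held an E-box from 232 to 227 bases before the start. Among all 32851 promoter windows of the same length, 17.8% held the FOXA letters, 18.9% the ONECUT letters, 12.4% the TATA box, 6.02% the E-box, 9.56% the C/EBP letters and 0.384% the HNF4 letters. These are matches of letters, and no binding was measured.

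Total counts ranged from 23798251 to 45751398 per library. Levels are given as CPM (counts per 1000000 counts of the library) after TMM scaling, an adjustment of library size in edgeR, and levels of different genes were compared only as CPM per kilobase of exon. Tumour T1 was left out because it held kidney transcripts, with Alb at 37.9 CPM against 52518 CPM or more in every other tumour and the kidney gene Kap at 35347 CPM. The CPM of T1 used its library total alone, without TMM scaling. Tumour T24, a DEN tumour on the ALIOS diet, stood farthest from the rest after T1, so several results are also given without it. Of 49 libraries it had the lowest summed hepatocyte markers (97308 CPM) and the highest summed stellate cell and fibroblast markers (1140 CPM). Its hepatocyte sum lay close to that of the lowest ALIOS liver (101483 CPM). On the first principal component, the main axis of variation between libraries, all livers had negative values. So did the tumours T2 (-47.2), T23 (-25.1) and T6 (-11.7), and no other tumour. The clustering of the paper also placed T6 among non-tumour tissue. These tumours stayed in the comparisons, and no fit left them all out together. In bulk tissue, fewer cells of a type and less RNA per cell cannot be told apart. T7, as a single library, entered no test.

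In the livers of the control diet, Hnf4a and Cebpa were the most abundant of the factors for their length. Hnf4a reached 99.7 CPM per kilobase on average and Cebpa 91.4. Foxa3 followed at 31.3 CPM per kilobase, above Prox1 at 12.8 and Foxa2 at 11.4. Onecut2 (7.98 CPM per kilobase), Onecut1 (7.72) and Cebpb (7.19) lay close together, within their spread between livers, and Foxa1 was lowest at 5.05. The value of Onecut1 may be too low, because 2171 of its 4113 exon bases are shared with another gene on the same strand. Prox1 and Foxa2 did not differ beyond their spread either, nor did Hnf4a and Cebpa. All 9 genes passed the filter on low counts in all 7 comparisons. The plot of the levels by group shows every library.

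**Figure D1:**
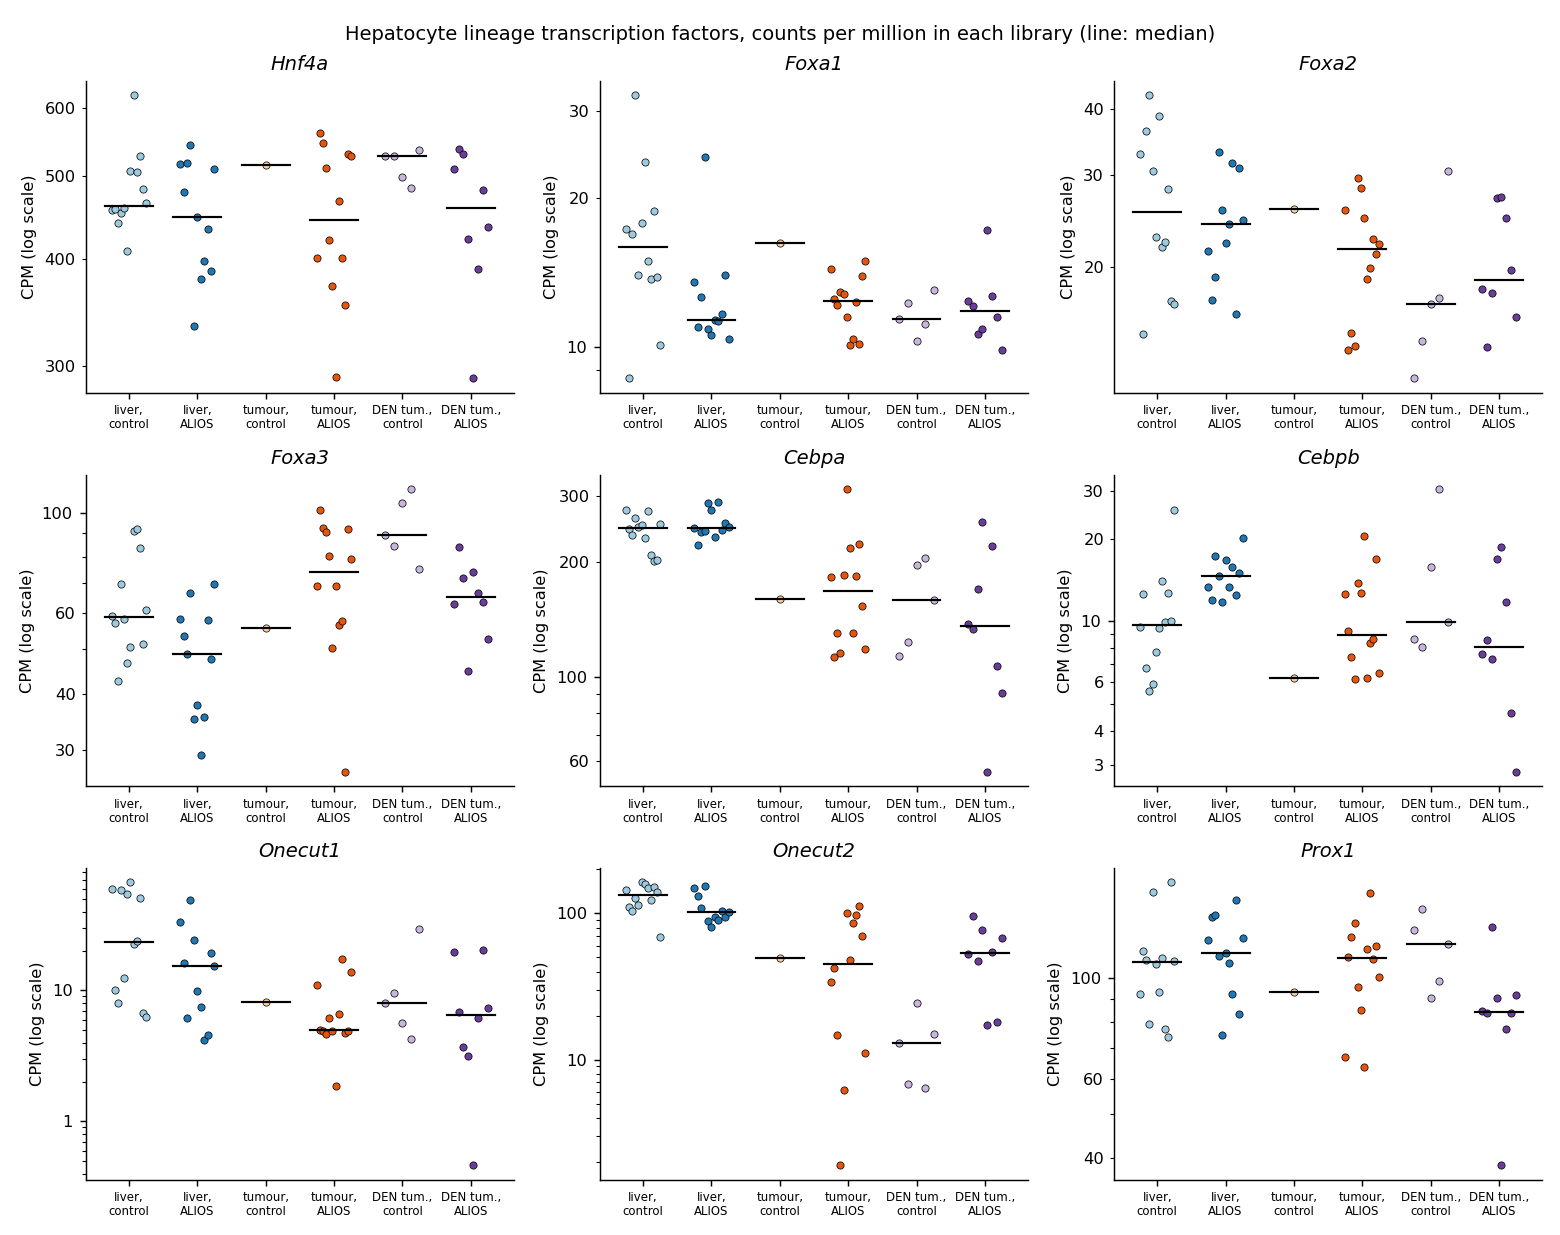
CPM on a log axis for the 9 factors in each of 49 libraries, by tissue, diet and DEN, with a line at each group's median. The DEN tumours on the control diet lie below every liver for Onecut2, while Hnf4a overlaps in all groups.

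The effect of diet on non-tumour liver was compared first. None of the 9 factors passed an adjusted p of 0.05 (edgeR quasi-likelihood test with Benjamini-Hochberg adjustment over all 13723 genes), while 11.2% of all genes tested did, and 4 of the 9 had an unadjusted p under 0.05, as had 4024 of the 13723 genes. DESeq2 also called none. The 11 ALIOS livers had Cebpb between 11.8 and 20.1 CPM, with a median of 14.7, and all 11 lay above the median of the control livers, whose range was 5.56 to 25.5 CPM. The highest control liver was N9, which was above every ALIOS liver. The log2 fold change of Cebpb was 0.43 ± 0.19 (SE; edgeR adjusted p = 0.128), and without N9 it was 0.62 (edgeR adjusted p = 0.00849). Foxa1 lay below the control median in 10 of 11 ALIOS livers, with ranges of 10.4 to 24.2 and 8.63 to 32.2 CPM. Its log2 fold change was -0.41 ± 0.18 (SE; edgeR adjusted p = 0.130), and without N16, the highest ALIOS liver, -0.54 (edgeR adjusted p = 0.0288). For Cebpb and for Foxa1 alike, this was the only call, 1 of 23 fits that left out a library. Leaving out these livers was chosen after seeing the data.

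The remaining factors did not pass in the livers either. Foxa3 had a log2 fold change of -0.40 ± 0.16 (SE; edgeR adjusted p = 0.0926) and Onecut2 of -0.27 ± 0.13 (SE; edgeR adjusted p = 0.170). Onecut1 ranged from 6.24 to 67.1 CPM among control livers and from 4.22 to 49.2 CPM among ALIOS livers, a wider spread in relation to the mean than for the other 8 factors in the livers. Its log2 fold change of -0.90 carried a standard error of 0.48 (edgeR adjusted p = 0.214). Cebpa, between 202 and 275 CPM in control livers and between 222 and 290 CPM in ALIOS livers, was the steadiest in relation to its mean, and its 95% interval for the diet difference ran from -0.07 to 0.17 on the log2 scale. Intervals here are approximate, from the standard error. Those of Hnf4a (-0.28 to 0.04) and Prox1 (-0.19 to 0.33) likewise held 0.

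Tumours on the ALIOS diet that formed without DEN were then set against ALIOS livers, 12 against 11 libraries. Foxa3 rose and Cebpa, Cebpb, Onecut1 and Onecut2 fell, while Hnf4a, Foxa1, Foxa2 and Prox1 did not pass the test. These 5 of 9 compare with 52.8% of all 14183 genes tested, so the number called was near the background. Of all genes, 26.9% were called higher and 25.9% lower, beside 1 and 4 of the 9 factors, and 28.1% were called with at least a 1.5-fold difference, beside 2 of the 9 (Onecut1 and Onecut2). The falls of Cebpb and Onecut2 were close to the threshold and were lost when some single libraries were left out.

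Cebpa was between 222 and 290 CPM in the ALIOS livers, with a median of 246, and between 113 and 313 CPM in the tumours, with a median of 168. In 10 of 12 tumours it lay below every ALIOS liver, and in T2 it lay above them all. T2 was the tumour nearest the livers on the first principal component. The log2 fold change was -0.55 ± 0.14 (SE; edgeR adjusted p = 0.00274), a level 1.46-fold lower. Cebpa kept its call in all 23 fits that left out a library, with adjusted p-values up to 0.0152. With library totals in place of TMM scaling, it was -0.36 (edgeR adjusted p = 0.0563).

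Foxa3, the member of its family with the highest level per kilobase in liver, went the other way. It ranged from 29.2 to 69.5 CPM in the livers, with a median of 48.8, and from 26.9 (T6) to 101 CPM in the tumours, with a median of 74.0. The groups overlapped, with 11 of 12 tumours above the liver median and 6 above every liver. edgeR gave a log2 fold change of 0.56 ± 0.18 (SE; edgeR adjusted p = 0.0118), or 1.48-fold higher. Foxa1 and Foxa2 gave log2 fold changes of -0.05 ± 0.12 and -0.18 ± 0.14 (SE), with edgeR adjusted p-values of 0.737 and 0.310.

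The ONECUT genes showed the largest differences. Onecut1 ranged from 4.22 to 49.2 CPM in the livers, with a median of 15.4, and from 1.85 to 17.4 CPM in the tumours, with a median of 4.95. The tumours overlapped the lower livers, and 11 of 12 were under the liver median. The fitted log2 difference was -1.27 ± 0.40 (SE; edgeR adjusted p = 0.0104), and it was called in every fit that left out a library. Onecut1 shares 2171 of its 4113 bases of exon with the noncoding gene Gm20649 on the same strand, which held 25 counts over all libraries. Reads that fall in exon of both genes may have been counted for neither, and this was not tested.

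Onecut2 was spread most among the tumours. It ranged from 81.1 to 152 CPM in the livers, with a median of 103. The tumours ran from 1.90 CPM in T13 and 6.18 in T14 to 112 CPM in T6, with a median of 45.2, and 8 of 12 lay under every liver while the other 4 were within the range of the livers. The log2 fold change was -1.06 ± 0.44 (SE; edgeR adjusted p = 0.0445). It was called in 8 of 23 fits that left out a library and lost in the rest, with adjusted p-values of up to 0.0872 (without T12). The libraries whose removal ended the call were N13 to N16, N18, N19, N21 to N23, T3, T9 to T12 and T14.

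Cebpb had a median of 14.7 CPM in the ALIOS livers and 8.93 CPM in the tumours, which ranged from 6.17 to 20.4 CPM. The groups overlapped, with 7 of 12 tumours below every liver and T3 above all of them. edgeR gave a log2 fold change of -0.45 ± 0.18 (SE; edgeR adjusted p = 0.0401). The call was kept in 10 of 23 fits that left out a library. It ended without N15, N16, N18, N20, N22, N23, T4, T5, T6, T9, T11, T12 or T13, with an adjusted p of up to 0.126 (without T12). Cebpb shares 312 exon bases with Tmem189 on the opposite strand, and the strand option of the counting was not given in the sources used here.

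Hnf4a ranged from 334 to 543 CPM in the livers and from 291 to 560 CPM in the tumours, with medians of 447 and 444. The ranges overlapped nearly in full. Its log2 fold change was 0.005 ± 0.11 (SE; edgeR adjusted p = 0.977), with a 95% interval from -0.22 to 0.23. Prox1 likewise overlapped, from 74.9 to 149 CPM in the livers and from 63.5 to 154 CPM in the tumours, with a 95% interval from -0.36 to 0.18 for the log2 difference. Prox1 shares 133 exon bases with its antisense gene Prox1os, which held 5022 counts over all libraries, and without the strand option reads from there cannot be told apart.

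**Figure D2:**
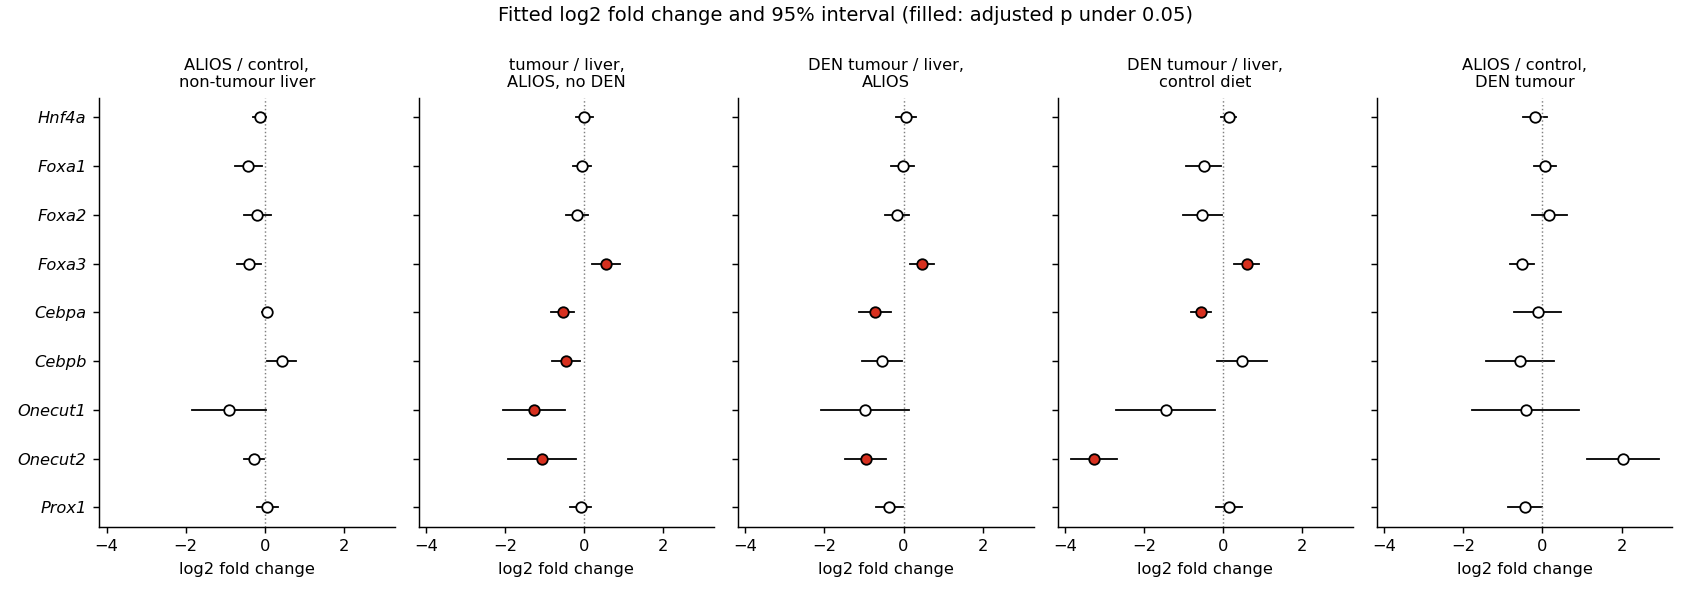
Fitted log2 fold change of the 9 factors in 5 comparisons, with 95% intervals as lines. Filled points have an adjusted p under 0.05: Foxa3 lies to the right of 0 and Cebpa and Onecut2 to the left in all 3 tumour comparisons, and no diet comparison holds a filled point.

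DEN tumours on the ALIOS diet were compared with the same 11 ALIOS livers, so this comparison shares its controls with the one above. No non-tumour liver was labelled as from a mouse given DEN, so tumour and DEN exposure cannot be told apart here. Foxa3 rose and Cebpa and Onecut2 fell, 3 of 9 factors, against 47.5% of all 14434 genes tested (27.7% higher and 19.8% lower). Cebpa ranged from 56.0 CPM (T24) to 256 CPM (T23), with a median of 136, and 7 of 8 tumours were below every liver. The fitted log2 difference was -0.73 ± 0.21 (SE; edgeR adjusted p = 0.00697), and without T24 -0.60 (edgeR adjusted p = 0.00456). Onecut2 ranged from 17.2 to 95.7 CPM, with a median of 53.2, and 7 of 8 tumours were below every liver. Its log2 fold change was -0.96 ± 0.27 (SE; edgeR adjusted p = 0.00643), and without T24 -0.82 (edgeR adjusted p = 0.00598). Foxa3 without T24 was 0.44 (edgeR adjusted p = 0.0325).

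Foxa3 in the same tumours ranged from 44.9 to 83.9 CPM with a median of 65.1, and 3 of 8 lay above every liver. The log2 fold change was 0.46 ± 0.16 (SE; edgeR adjusted p = 0.0215). Without T16, the highest tumour, it was 0.39 (edgeR adjusted p = 0.0601). Cebpb ranged from 2.83 to 18.7 CPM, and 6 of 8 tumours lay below every liver. The fitted log2 difference was -0.54 ± 0.26 (SE; edgeR adjusted p = 0.0898), and it passed without T24 (-0.73, edgeR adjusted p = 0.0169) or without T23 (-0.72, edgeR adjusted p = 0.0257). T24 held the highest Cebpb of these 8 tumours beside the lowest Hnf4a (290 CPM), Cebpa, Prox1 (38.5 CPM) and Onecut1 (0.462 CPM).

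Prox1 ranged from 38.5 to 130 CPM in these tumours, with a median of 84.2 CPM against 114 CPM in the livers, and 7 of 8 tumours lay below the liver median. It did not pass (log2 fold change -0.36 ± 0.17, SE; edgeR adjusted p = 0.0908), but did so without N17 (-0.43, edgeR adjusted p = 0.0405) or without T22, the highest tumour (-0.47, edgeR adjusted p = 0.0263). Onecut1 ranged from 0.462 to 20.5 CPM, within and below the livers, with a log2 fold change of -0.97 ± 0.57 (SE; edgeR adjusted p = 0.169). Hnf4a, Foxa1 and Foxa2 overlapped the livers, with log2 fold changes of 0.06, -0.02 and -0.18 and edgeR adjusted p-values of 0.701, 0.905 and 0.361.

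DEN tumours on the control diet were compared with control livers, 5 against 12 libraries. Here too, tumour and DEN exposure differed together and cannot be told apart. Foxa3 rose and Cebpa and Onecut2 fell, again 3 of 9 factors, against 51.7% of all 14731 genes tested (27.3% higher and 24.4% lower). Onecut2 was at 13.1, 6.82, 24.3, 6.42 and 15.1 CPM in T17 to T21, and between 69.0 and 163 CPM in the livers with a median of 133. The groups did not overlap. The share of all genes whose groups were separate in this way was not counted. edgeR gave a log2 fold change of -3.26 ± 0.30 (SE; edgeR adjusted p = 3.25e-08), a level 9.60-fold lower.

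Cebpa was at 113, 124, 197, 205 and 159 CPM in T17 to T21, against 202 to 275 CPM in the livers. All but T20 were below every control liver. The log2 fold change was -0.55 ± 0.13 (SE; edgeR adjusted p = 0.00144). Foxa3 was at 89.4, 84.3, 105, 113 and 75.0 CPM, all above the control median of 58.8 CPM, and T19 and T20 were above the highest liver at 92.3 CPM. Its log2 fold change was 0.60 ± 0.17 (SE; edgeR adjusted p = 0.00569). Both calls, and that of Onecut2, held in all 17 fits that left out a library.

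Other factors in this comparison passed when single libraries were left out. Onecut1 was at 8.07, 9.61, 5.63, 4.27 and 29.4 CPM in T17 to T21, and its log2 fold change was -1.44 ± 0.64 (SE; edgeR adjusted p = 0.0660). Without T21 it was -2.20 (edgeR adjusted p = 0.0129), and it also passed without N8, N9 or N11, at adjusted p-values between 0.0439 and 0.0479. Foxa2 was at 12.2, 14.4, 16.97, 17.4 and 30.5 CPM, with T21 again apart, and went from -0.53 ± 0.25 (SE; edgeR adjusted p = 0.0893) to -0.81 without T21 (edgeR adjusted p = 0.0128). Foxa1, between 10.3 and 13 CPM against a control median of 15.9, had a log2 fold change of -0.49 (edgeR adjusted p = 0.0760) and passed without N9 (0.0440) or without N10 (0.0308). Cebpb was at 8.63, 8.07, 15.8, 30.5 and 9.97 CPM, with a log2 fold change of 0.48 ± 0.32 (SE; edgeR adjusted p = 0.224). Without T20, its highest tumour, the estimate lay at -0.01 (edgeR adjusted p = 0.976).

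Hnf4a was at 527, 527, 499, 484 and 535 CPM in T17 to T21, inside the range of 408 to 621 CPM of the control livers. edgeR gave a log2 fold change of 0.14 ± 0.09 (SE; edgeR adjusted p = 0.222). Prox1 was at 128, 142, 90.3, 98.7 and 119 CPM, and its log2 fold change was 0.16 ± 0.17 (SE; edgeR adjusted p = 0.465). Across the 3 comparisons of tumours with livers the 95% intervals of Hnf4a reached no farther than -0.22 and 0.32.

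Among tumours on the ALIOS diet, those with and without DEN were compared to ask whether the carcinogen mattered. None of the 9 factors passed, and of all 14845 genes tested edgeR called 0, or 0%, with 1079 genes at an unadjusted p under 0.05 and 75 genes called by DESeq2. The estimates of Onecut2 (0.04 ± 0.55, SE) and Cebpa (-0.24 ± 0.25) show how far precision differed between factors. A change in Onecut2 of about 2-fold in either direction was within its 95% interval, from -1.03 to 1.12 on the log2 scale. For Foxa1 the interval was -0.23 to 0.18.

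Diet was also compared among DEN tumours, 8 on the ALIOS diet against 5 on the control diet. No factor passed, and 0.0134% of all 14944 genes tested did. Onecut2 was higher on the ALIOS diet in 6 of 8 tumours than in any control diet tumour, with T24 at 17.2 and T26 at 18.2 CPM within the control range. The fitted log2 difference was 2.04 ± 0.46 (SE), 4.12-fold higher, with an unadjusted p of 0.000599 and an adjusted p of 0.212 (edgeR). Without T24 it was 2.17 (edgeR adjusted p = 0.0723). DESeq2 called it (adjusted p = 0.00171), and so did the edgeR fit over all groups (adjusted p = 0.0424). Foxa3 lay below every control diet tumour in 7 of 8 tumours on the ALIOS diet, with a log2 fold change of -0.51 ± 0.15 (SE; edgeR adjusted p = 0.365).

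The effect of diet itself was compared between DEN tumours and non-tumour livers as an interaction. These tissues differ in both tumour and DEN exposure, which cannot be told apart. Onecut2 passed, 1 of 9 factors, against 2.27% of all 15606 genes tested. On the log2 scale its diet difference was -0.27 in the livers and 2.04 in the DEN tumours, and the difference between them was 2.31 ± 0.39 (SE; edgeR adjusted p = 0.00629). Without T24 it was 2.43 (edgeR adjusted p = 0.000357), and leaving out each DEN tumour of the control diet gave 2.13 to 2.66. In a fit that took its spread from all groups it was 2.31 with an adjusted p of 0.0526 (edgeR). Cebpb gave -1.02 ± 0.43 (SE; edgeR adjusted p = 0.211), and the remaining 7 factors had adjusted p-values of 0.279 or more by edgeR.

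C/EBPα and C/EBPβ form dimers on the same DNA letters, so the log2 ratio of Cebpb to Cebpa counts was taken within each library. The ratio was -4.60 ± 0.63 (SD, n = 12) in control livers and -4.11 ± 0.25 (SD, n = 11) in ALIOS livers. It was -4.05 ± 0.48 (SD, n = 12) in ALIOS tumours without DEN, -3.99 ± 1.04 (SD, n = 8) in DEN tumours on the ALIOS diet and -3.61 ± 0.50 (SD, n = 5) in DEN tumours on the control diet. None of the 6 comparisons passed a 2-sided permutation test after adjustment over the 6. The nearest were DEN tumours against livers on the control diet, 0.99 higher (exact permutation test, p = 0.00905, adjusted p = 0.0543), and diet in the livers, 0.49 higher on the ALIOS diet (permutation test with 100000 resamples, p = 0.0252, adjusted p = 0.0757). In ALIOS tumours without DEN, where both genes fell, the ratio differed from that of the livers by 0.06 (permutation test, adjusted p = 0.852). In DEN tumours the ratio differed between the diets by -0.39, ALIOS minus control, (exact permutation test, adjusted p = 0.852). Without T24 that difference was -0.73 (exact permutation test, adjusted p = 0.0379).

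Partners and paralogs of the factors were listed next, 11 genes of which 8 or 9 passed the filter on low counts in each comparison. Onecut3, the third gene of the ONECUT family, had no count in any of the 49 libraries. In ALIOS tumours without DEN 4 of the 8 tested rose and none fell, beside 26.9% and 25.9% of all genes tested. They were Trib2 (log2 fold change 1.97), a pseudokinase that promotes degradation of C/EBPα, Ddit3 (1.37), which encodes the stress factor CHOP of the C/EBP family, Atf4 (0.52), a factor of the amino acid and stress response, and Cebpg (0.36). Their edgeR adjusted p-values were 1.46e-07, 2.14e-06, 0.000217 and 0.0100. Trib2 was between 1.78 and 3.52 CPM in the ALIOS livers and between 3.49 and 17.9 CPM in these tumours, so the groups overlapped only between 3.49 and 3.52 CPM.

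The same list was read in the DEN tumours. On the ALIOS diet 4 of 8 tested rose and none fell, beside 27.7% and 19.8% of all genes, with log2 fold changes of 2.46 for Trib2, 2.07 for Ddit3, 0.77 for Atf4 and 0.32 for Cebpg (edgeR adjusted p-values of 9.50e-05, 0.000102, 1.25e-05 and 0.0104). T24 held the highest Trib2 (58.5 CPM) and Ddit3 (98.4 CPM) of that group, whose medians were 7.77 and 16.6 CPM. Without T24 the same count of 4 rose and none fell, beside 29.8% and 22.6% of all genes. In that fit Trib2 was at 1.54 and Ddit3 at 1.33 on the log2 scale (edgeR adjusted p-values of 2.97e-06 and 1.24e-06). On the control diet Trib2 (2.23), Ddit3 (1.59) and Trib1 (0.66), a pseudokinase related to Trib2, rose and Ppargc1a (-0.73), a coactivator of HNF4A in gluconeogenesis, fell (edgeR adjusted p-values of 3.99e-09, 2.19e-06, 0.000486 and 0.00112), beside 27.3% of all genes higher and 24.4% lower. Diet in the livers called 1 of 8, Cebpd, a C/EBP gene of the acute phase (log2 fold change 0.78, edgeR adjusted p = 0.0196).

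Genes known as HNF4A targets were counted next. In ALIOS tumours without DEN 13 of 17 fell and none rose, beside 25.9% of all genes lower and 26.9% higher, and the median log2 fold change was -0.97, against 0.01 over all genes tested. Cyp7a1 (log2 fold change -2.76) and Cyp8b1 (-2.47), which encode bile acid synthesis enzymes, fell most, and F9 (-0.54), clotting factor IX, and Ttr (-0.47), the carrier transthyretin, fell least among those called (edgeR adjusted p-values of 0.0126, 0.0102, 6.64e-05 and 0.0188). Cyp7a1 ranged from 132 to 416 CPM in ALIOS livers and from 0.127 to 245 CPM in these tumours, so the ranges overlapped. Apoc3, Apob, Mttp and F12, genes of lipoproteins and of clotting, did not pass, with log2 fold changes between -0.07 and 0.23.

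The same targets were counted in DEN tumours. On the control diet 11 of 17 fell and 1, F12, rose by 0.27 (edgeR adjusted p = 0.0386), beside 24.4% and 27.3% of all genes, with a median log2 fold change of -1.07 against 0.03 over all genes. Cyp7a1 (-4.08) and Slco1b2 (-3.61), a bile acid and drug carrier, fell most there (edgeR adjusted p-values of 0.00139 and 7.96e-06). On the ALIOS diet 10 of 17 fell and none rose, beside 19.8% and 27.7% of all genes, with a median of -0.78 against 0.08. Without T24, 10 fell and 2 rose, beside 22.6% and 29.8% of all genes. Those that rose were Apob, by 0.62, and F12, by 0.18 (edgeR adjusted p-values of 0.0122 and 0.0398). In the fit that kept T24, Cyp7a1 (-2.91) and Cyp8b1 (-2.06) fell most (edgeR adjusted p-values of 0.00439 and 0.0280). Diet in the livers called none of the 17, and neither did diet in DEN tumours or the comparison of tumours with and without DEN, all by edgeR.

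**Figure D3:**
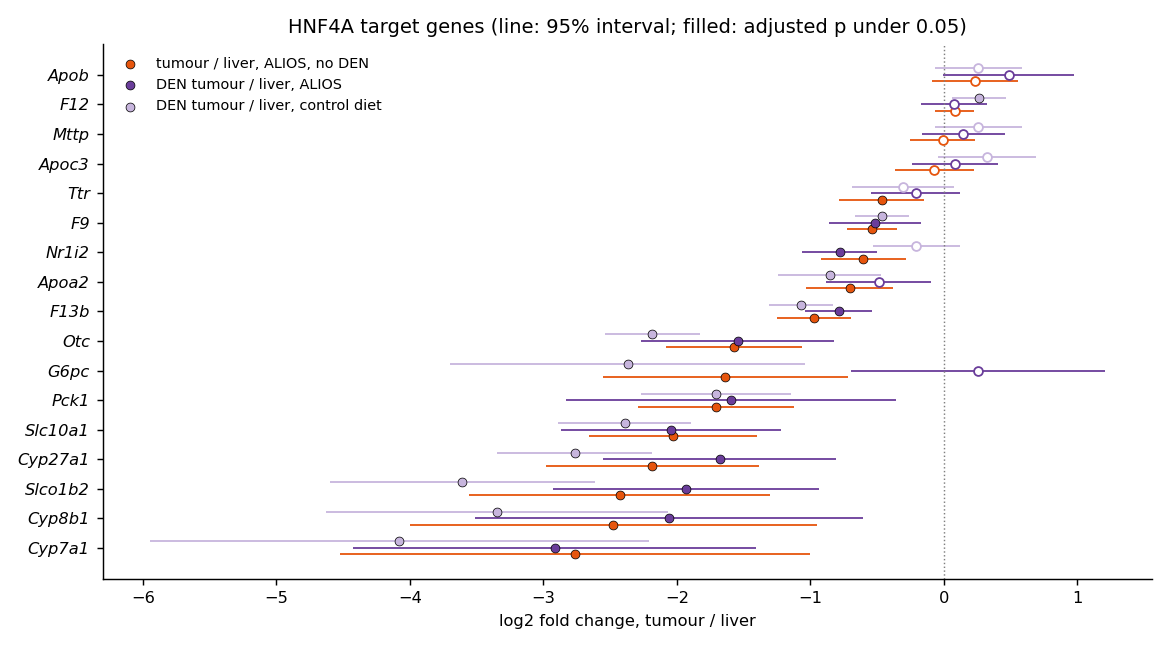
Log2 fold change, tumour over liver, of 17 HNF4A target genes in 3 comparisons, with 95% intervals as lines and filled points at an adjusted p under 0.05. Cyp7a1 sits farthest to the left in all 3 comparisons, and Apob, F12, Mttp and Apoc3 near 0 or to the right.

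Of 26 other liver transcription factors, 5 rose and 11 fell in ALIOS tumours without DEN, beside 26.9% and 25.9% of all genes tested. Nr1i3, the drug-sensing receptor CAR, fell most (log2 fold change -1.78, edgeR adjusted p = 0.0279), followed by Tbx3 (-1.57, edgeR adjusted p = 0.0179), a T-box factor of the developing liver. Nr1d1 (0.85, edgeR adjusted p = 0.00426), a repressor of the circadian clock, and Atf5 (0.76, edgeR adjusted p = 9.11e-05) rose most. In DEN tumours on the ALIOS diet 6 rose and 14 fell, with or without T24. The shares of all genes were 27.7% and 19.8% with T24, and 29.8% and 22.6% without it. On the control diet 2 rose and 9 fell, beside 27.3% and 24.4% of all genes. Nr1i3 fell in both, by 2.0 and 2.89 on the log2 scale (edgeR adjusted p-values of 0.00475 and 1.26e-05), and Xbp1, a factor of the unfolded protein response, rose in both, by 0.73 and 0.88 (edgeR adjusted p-values of 0.00260 and 2.71e-05). In the livers diet called 1 of 26, Hhex, a homeobox factor of early liver (-0.75, edgeR adjusted p = 0.0315).

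Markers of other cells moved with the comparisons. The 6 proliferation markers summed to between 4.61 and 29.8 CPM in ALIOS livers, between 12.5 and 77.7 CPM in ALIOS tumours without DEN and between 13.8 and 157 CPM in DEN tumours on that diet. On the control diet they summed to between 22.4 and 41.1 CPM in DEN tumours and between 2.52 and 7.07 CPM in livers, with no overlap. The sum of 8 macrophage markers had a median of 463 CPM in ALIOS livers (range 275 to 1022), of 165 CPM in ALIOS tumours without DEN (50.9 to 507) and of 256 CPM in DEN tumours on that diet (51.5 to 603). On the control diet it had a median of 290 CPM in livers (187 to 487) and of 194 CPM in DEN tumours (68.1 to 216). By edgeR 6 of the 8 rose with the ALIOS diet in the livers, where 11.2% of all genes were called in either direction. In ALIOS tumours without DEN, DEN tumours on the ALIOS diet and DEN tumours on the control diet, 7, 2 and 4 of the 8 fell. The shares of all genes that fell were 25.9%, 19.8% and 24.4%. Without T24, 5 of the 8 fell in DEN tumours on the ALIOS diet, beside 22.6% of all genes. The hepatocyte markers summed to between 99969 and 268530 CPM in ALIOS tumours without DEN and between 101483 and 175106 CPM in ALIOS livers, with no marker of the 12 at 0 in either. In DEN tumours on the control diet they summed to between 212989 and 259952 CPM, above all control livers (111496 to 161495 CPM). Alb alone had a median of 146371 CPM over the tumours other than T1, so the sums follow the most abundant markers. By edgeR 4 of the 12 rose and 4 fell in DEN tumours on the control diet, with a median log2 fold change of -0.31. In ALIOS tumours without DEN 4 rose and 6 fell, beside 26.9% and 25.9% of all genes. In DEN tumours on the ALIOS diet 4 rose and 5 fell, beside 27.7% and 19.8%. Of the 7 stellate cell and fibroblast markers, 4 rose and 2 fell in DEN tumours on the control diet, beside 27.3% and 24.4% of all genes. The collagen genes Col1a1 and Col1a2 rose most, by 4.29 and 3.20 on the log2 scale (edgeR adjusted p-values of 8.17e-06 and 2.02e-06). Dcn (-1.14) and Lrat (-0.97) fell (edgeR adjusted p-values of 0.00185 and 0.0123). The 7 markers summed to between 89.1 and 519 CPM there, overlapping the control livers (120 to 249 CPM). The 7 markers of cholangiocytes, which also express Onecut1, summed to between 14.6 and 223 CPM in ALIOS livers. In ALIOS tumours without DEN they summed to between 16.6 and 281 CPM. The part of these cells in the results for the 9 factors was not tested.

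The factors were also compared with each other within tissue, after subtracting each group's mean of log2 CPM, over 36 pairs in the 23 livers and the same 36 in 25 tumours. In the livers 4 pairs passed a permutation test with adjustment over all 72 (100000 permutations within groups). They were Hnf4a with Foxa3 (Pearson r = 0.75, Spearman rho = 0.75, permutation p = 6e-05 and 0.00014, adjusted p = 0.00264 and 0.0101), and Foxa1 with Foxa2 (r = 0.74, rho = 0.63, permutation p = 9e-05 and 0.00309, adjusted p = 0.00264 and 0.0316). Onecut1 moved with Foxa1 (r = 0.68, rho = 0.66, permutation p = 0.00011 and 0.00149, adjusted p = 0.00264 and 0.0264) and with Onecut2 (r = 0.67, rho = 0.65, permutation p = 0.00041 and 0.00095, adjusted p = 0.00738 and 0.0228). Without the 2 livers farthest from the median of the first gene, r was between 0.56 and 0.71 for these pairs.

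In the tumours 3 other pairs passed. Hnf4a ran against Foxa2 (r = -0.58, rho = -0.65, permutation p = 0.00109 and 0.00073, adjusted p = 0.0157 and 0.0228), although with library totals in place of TMM scaling the adjusted p of r was 0.0670. Without the 2 tumours farthest from the median of Hnf4a r was -0.57, and without T24 -0.54. Prox1 ran against Cebpb (r = -0.58, rho = -0.59, permutation p = 0.00396 and 0.00351, adjusted p = 0.0407 and 0.0316). Without the 2 tumours farthest from the median of Cebpb r was -0.62, and without T24, which held the lowest Prox1, it was -0.49. Hnf4a and Prox1 gave r = 0.69 and rho = 0.55 (permutation p = 0.00135 and 0.00789, adjusted p = 0.0162 and 0.0489). For this pair r was 0.55 without T24, about the size of the other 2 pairs without it (-0.54 and -0.49). It was 0.39 without the 2 tumours farthest from the median of Hnf4a, so the size of this relation depended on those tumours. Foxa1 with Foxa2 had r = 0.23 and Onecut1 with Onecut2 r = 0.09 in the tumours. Without T24, some pairs that had not passed had an r larger in size than these 3 pairs. Among them were Cebpa with Cebpb (0.77), Foxa2 with Cebpa (0.68), Hnf4a with Cebpa (-0.66) and Hnf4a with Foxa3 (0.59). No p-value was computed without T24, so which pairs stood out depended on that library. Whether a relation differed between livers and tumours was not tested, and the libraries of a class share tissue and composition.

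**Figure D4:**
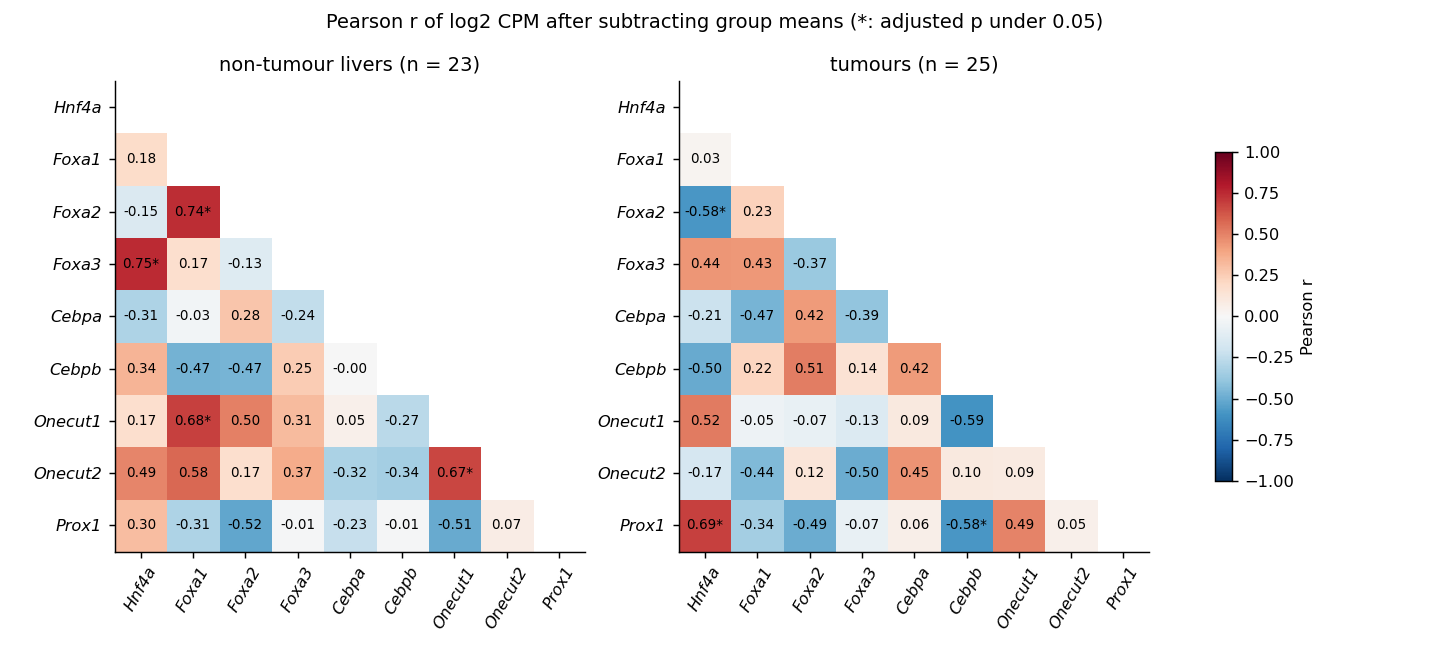
Pearson r between each pair of factors in 23 livers (left) and 25 tumours (right), from log2 CPM after subtracting group means, with stars at an adjusted p under 0.05. Among livers the starred pairs are Hnf4a with Foxa3, Foxa1 with Foxa2, and Onecut1 with Foxa1 and with Onecut2.

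The genes most like each factor were sought over the same residuals in 48 libraries and 17728 genes. These correlations across libraries that share depth and composition are descriptions. Foxa3 was most like Xbp1 (r = 0.89, rho = 0.87), the factor of the unfolded protein response, then Fkbp11 (r = 0.80) and Krtcap2 (r = 0.80). Hnf4a was most like Lman1 (r = 0.85, rho = 0.81), a cargo receptor of secretion, then Pzp (r = 0.83) and Sec16a (r = 0.82). For Cebpa the nearest was Marc1 (r = 0.88, rho = 0.74), followed by Fahd1 (r = 0.88) and 1700001C19Rik (r = 0.87), and for Cebpb it was Tomm40 (r = 0.85, rho = 0.79), a channel of mitochondrial import, followed by Mrps15 and Malsu1 (both r = 0.85).

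The other factors had looser neighbours. Foxa1 was nearest to Hhex (r = 0.74, rho = 0.61), then Brd2 (r = 0.68) and Gm26876 (r = 0.67). Foxa2 was nearest to Phlda1 (r = 0.75, rho = 0.77), then Gadd45g (r = 0.72) and Cish (r = 0.71), an inhibitor of cytokine signalling. Onecut1 lay nearest to Arhgap29, Zyg11a and Prdm2 (each r = 0.78), and Prox1 to Lmbrd1 (r = 0.77), Slc2a2 (r = 0.76), the glucose carrier GLUT2 of hepatocytes, and Rreb1 (r = 0.73). For Onecut2 the nearest was Gm17196 (r = 0.68), but with rho = 0.40 and r = 0.47 without the 2 farthest libraries it was a weak match. A row without a gene symbol and Wfdc21 (both r = 0.68) followed.

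The single control diet tumour without DEN, T7, is given as values. It held Hnf4a at 515 CPM, Foxa1 at 16.2, Foxa2 at 25.8, Foxa3 at 55.7 and Prox1 at 93.2 CPM, each within the range of the control livers. Cebpa at 161 CPM and Onecut2 at 49.4 CPM lay below every control liver, whose lowest values were 202 and 69.0 CPM. Cebpb at 6.23 CPM and Onecut1 at 8.23 CPM were within the range of the livers. There is no second library of this kind, so the spread behind these values is unknown.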

How the data were processed

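RNA-seq was analysed in 49 of 50 libraries of C3H/He mouse liver and liver tumour, grouped by the labels. The authors prepared stranded mRNA libraries from RNA of high integrity, sequenced 100-base read pairs, aligned them by 2-pass STAR (mm10), and assigned exon reads to Gencode M6 genes by HTSeq (intersection-nonempty). Versions and the strand option were not given in the sources used here. What they deposited is the read count of each gene, with no normalization.

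Each comparison was fitted in edgeR 4.0.16 (R 4.3.3, limma 3.58.1) over all genes passing filterByExpr, with TMM scaling, glmQLFit and glmQLFTest, no covariates and Benjamini-Hochberg adjustment, with a call at 0.05. Only the groups compared entered a fit. The fits of diet in the livers and of DEN tumours against livers were also run on simulated counts. Far fewer genes were changed there than were called in the real tumour comparisons, so the scaling of those was not tested. ALIOS tumours without DEN were not simulated. CPM used a prior count of 0.5 for log2 values. Exon lengths and coordinates came from Gencode M21. Ratios and correlations were tested by permutation in scipy 1.17.1. Named genes were the 9 factors, for each other list the 2 highest and 2 lowest log2 fold changes among those called, and for each factor the 3 genes most correlated with it. Genes named beside these as not passing were chosen after their values were seen. The factors and the lists were chosen with earlier results of these data known, and 1 listed gene is not reported here. Alternatives were DESeq2 1.42.0, RLE factors, library totals, no filter, 1 fit over all groups, a 1.5-fold minimum, a replicate block and leaving out libraries.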

Additional observations from a re-analysis of the deposited data

Results flagged for a closer look

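Among the 18 sets of values tested for an outlying library (9 factors in the 8 and the 5 DEN tumours), 3 had one by Dixon's criterion, where chance gives about 0.9 (1 in 20). Foxa1 in T24 was 17.2 CPM against 9.87 to 12.7 CPM in the other 7 DEN tumours on the ALIOS diet. In T21, a DEN tumour on the control diet, Foxa2 was 30.5 CPM against 12.2 to 17.4 CPM in the other 4, and Onecut1 was 29.4 CPM against 4.27 to 9.61 CPM. Markers summed in T21 stood at rank 33 of 49 libraries for hepatocytes and rank 11 for cholangiocytes, counted from the lowest.

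The diet difference of Onecut2 in DEN tumours exceeded that in non-tumour livers by 2.31 on the log2 scale (edgeR adjusted p = 0.00629), and Onecut2 was higher on the ALIOS diet than in every control diet tumour in 6 of 8 DEN tumours. The control diet side of the DEN contrast rests on 5 libraries. Tumour and DEN exposure cannot be told apart in this difference, because no non-tumour liver was labelled with DEN.

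T1, which entered no main comparison, held Hnf4a at 963 CPM, while no other library exceeded 621 CPM. Values of T1 were scaled by its library total alone and those of the other libraries by TMM. Foxa1, Foxa2, Onecut1 and Onecut2 had 0 counts there, Foxa3 had 1 count, and Cebpa (17.75 CPM), Cebpb (1.94 CPM) and Prox1 (2.30 CPM) lay below the 48 libraries of the compared groups. The kidney genes Kap, Slc34a1 and Umod stood at 35347, 4922 and 1812 CPM in T1.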

How the results depend on the processing

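Leaving out libraries in turn was chosen after seeing the data, except for T9, T24 and the DEN tumours of the control diet, and so were the gene list counts and the correlations without T24. The number of factors called for diet in the livers was 0, and 1 with library totals (Cebpb); it ranged from 0 to 1 when a library was left out (1 without N9, Cebpb, or without N16, Foxa1). For ALIOS tumours without DEN against livers it was 5, with 2 under the 1.5-fold minimum, 2 with library totals, 3 without the filter, 1 with T1, 3 without T9 and 3 to 5 over the libraries left out. Of all genes, 7585 of 14183 were called there with library totals and 8346 of 26709 without the filter. With T1 6683 of 14287 were called, and without T9 7184 of 14081. For DEN tumours against control livers it was 3, with 5 by DESeq2, 5 in the fit over all groups, 2 under the 1.5-fold minimum (Cebpa lost) and 3 to 5 over the libraries left out (5 without N9 or T21). Of all genes, DESeq2 called 7877 of 14731 there and the fit over all groups 7545 of 15985. For DEN tumours against ALIOS livers it was 3, with 2 under the 1.5-fold minimum (Foxa3 lost) and 2 to 4 over the libraries left out. For diet in DEN tumours it was 0, with 1 by DESeq2 and 1 in the fit over all groups (Onecut2). The interaction went from 1 to 0 in the fit over all groups. Library totals moved the median log2 fold change of all genes by 0.18 in ALIOS tumours without DEN and by 0.14 in DEN tumours on the ALIOS diet, and the share of calls that were higher from 50.9% to 72.9% and from 58.3% to 73.9%. For diet in the livers that share went from 59.9% to 87.1%. With T1, Foxa3 was 0.49 (adjusted p = 0.369), Cebpa -0.61 (0.0532) and Onecut1 -1.34 (0.0350), from edgeR. Over all genes, the calls between DEN and other ALIOS tumours went from 0 to 75 by DESeq2 and 268 in the fit over all groups, those for diet in DEN tumours from 2 to 155 and 228, with 14 without T24, 1 without the filter and 0 to 1 without a control diet tumour, and those of the interaction from 354 to 657 by DESeq2, 732 without T24, 174 without T17 and 191 without T18 or T20. Diet in the livers called 1542 genes, with 602 in the fit over all groups and 949 (without N17) to 2343 (without N13) over the libraries left out. The cause of these moves was not tested.

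Replicate numbers shared by groups did not pair the samples. Same-numbered deviations correlated between -0.14 and 0.08 over the 2 and 4 shared numbers. With the replicate block, which keeps only those libraries, 1 factor (Onecut2) was called in each of the 2 comparisons, against 5 and 3, and 379 and 1664 genes were called in all.

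The log2 ratio of Cebpb to Cebpa for DEN against other ALIOS tumours changed sign from 0.05 to -0.0147 with T1 and to -0.29 without T24, the latter with an adjusted permutation p of 0.223. Without T24 the ratio was -0.23 for DEN tumours against ALIOS livers and -0.73 for diet in DEN tumours (exact permutation test, adjusted p = 0.0379). Pairs passing were 4 and 3, and 6 and 4 with library totals. Of the single log2 fold changes under alternatives, 1111 kept direction and side of the threshold, 46 lost a call, 20 gained one and 38 without a call changed sign. With 5 DEN tumours on the control diet and 1 library per tumour, small differences could not be detected, and counting error weighs most on Onecut1, Onecut2 and Cebpb, at a few CPM in some tumours.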
